A study of Mus musculus with 6 samples.

Results

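The interferon-stimulated genes described here are a list of 38 genes, of 54446 genes with a row in the deposited counts, and all 38 had a row. They were chosen by name to cover the antiviral response outside the Ifit, guanylate-binding protein and immunity-related GTPase families. Earlier results of these data were known when they were chosen. RNA was sequenced from small intestinal epithelium of 6 mice, loosened with EDTA and DTT from jejunum by the sample titles and from jejunum and ileum by the series text. The 3 controls were Prkci flox/flox, and the 3 knockouts were Prkci flox/flox with Villin-CRE. All 6 animals thus carried the floxed alleles, were housed together, and were 3 to 4 months old. Prkci encodes an atypical protein kinase C of the apical polarity complex, and the series asked how its loss alters transcripts of enterocytes. Villin-Cre recombines in intestinal epithelium, so lymphocytes and stromal cells in the preparation keep the gene. Of the 38 genes, 37 passed the filter on low counts, and Ifi27l2a did not.

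Interferons are secreted proteins that make cells resist viruses. Type I and type III interferons signal through JAK kinases to a complex that holds STAT2 and IRF9 and binds the interferon-stimulated response element in the promoters of target genes, whereas interferon-gamma acts at gamma-activated sites. The products of the target genes sense viral RNA, degrade it, block entry and replication, or tag proteins with the ubiquitin-like modifier ISG15. In intestinal epithelium, type III interferon is a main inducer of these genes, and intraepithelial lymphocytes are a source of interferon-gamma.

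The response element is visible in the DNA of several members. RefSeq promoters (build GRCm38.p6, from 250 bases before to 50 bases after each start) were given for 27 of the 38 genes. The core of the response element, spelled GAAA, then 2 bases of any kind, then GAAA again, was searched on both strands. It was found in the promoters of 12 of these 27 genes (44.4%), and in 3.99% of the 27025 genes with a promoter of that length. A stricter form, in which CT follows at once, was found in 6 of the 27 (22.2%) and in 0.303% of all, and TTCNNNGAA, the letters of a gamma-activated site, in 5 of the 27 (18.5%) and in 9.55% of all. A stretch can match more than 1 motif. Matches were found in 9 of the 17 genes with a promoter that were higher at an unadjusted p below 0.05, and in 3 of the other 10. This split is a description and was not tested. The promoters below are of the 4 matched genes with the smallest p, followed by Isg15, added after its matches were seen because they run in an unbroken series. They are printed 5′ to 3′ on the strand of the gene, with matches to the core or to its reverse complement in capitals.
Stat2 (chr10:128270248-128270547, + strand): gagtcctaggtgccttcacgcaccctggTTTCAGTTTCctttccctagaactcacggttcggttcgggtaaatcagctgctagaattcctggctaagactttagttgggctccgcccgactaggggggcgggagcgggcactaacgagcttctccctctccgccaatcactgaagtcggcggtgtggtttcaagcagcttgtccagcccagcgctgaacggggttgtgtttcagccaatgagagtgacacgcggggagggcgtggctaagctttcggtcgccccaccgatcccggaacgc
Oas1g (chr5:120887564-120887863, - strand): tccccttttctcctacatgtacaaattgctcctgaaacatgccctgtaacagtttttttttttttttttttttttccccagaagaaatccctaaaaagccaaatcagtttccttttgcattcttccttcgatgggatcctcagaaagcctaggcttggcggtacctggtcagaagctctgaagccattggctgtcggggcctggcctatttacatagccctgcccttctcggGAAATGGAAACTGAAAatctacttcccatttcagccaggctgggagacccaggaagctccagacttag
Oas3 (chr5:120777610-120777909, - strand): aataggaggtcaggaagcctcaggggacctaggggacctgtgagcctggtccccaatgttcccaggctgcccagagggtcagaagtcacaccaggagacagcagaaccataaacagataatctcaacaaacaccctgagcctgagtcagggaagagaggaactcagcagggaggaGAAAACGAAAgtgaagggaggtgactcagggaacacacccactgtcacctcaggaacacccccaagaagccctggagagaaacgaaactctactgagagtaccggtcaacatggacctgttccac
Bst2 (chr8:71537423-71537722, - strand): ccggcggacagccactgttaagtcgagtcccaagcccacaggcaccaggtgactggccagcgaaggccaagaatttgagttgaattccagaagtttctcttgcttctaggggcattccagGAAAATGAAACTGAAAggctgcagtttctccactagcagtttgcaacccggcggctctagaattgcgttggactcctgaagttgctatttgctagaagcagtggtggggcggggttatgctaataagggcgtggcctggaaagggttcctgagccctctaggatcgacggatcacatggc
Isg15 (chr4:156200769-156201068, - strand): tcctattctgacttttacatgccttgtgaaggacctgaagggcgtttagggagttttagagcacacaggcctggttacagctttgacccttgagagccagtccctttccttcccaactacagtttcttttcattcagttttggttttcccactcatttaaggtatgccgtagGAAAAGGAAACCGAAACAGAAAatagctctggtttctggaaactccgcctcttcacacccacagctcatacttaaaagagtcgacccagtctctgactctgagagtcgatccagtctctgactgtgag
The match began at base −222 from the start in Stat2 and lay on the opposite strand. It began at −75 in Oas3. In Oas1g, matches at −18 and −12 overlapped, as did those at −130 and −124 in Bst2, and in Isg15 those at −78, −72 and −66. A match is a description of letters and does not show that a factor was bound.

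Most members were higher in the knockouts by a moderate amount, and no member passed the threshold of the main test. The median log2 fold change was 0.58 over the 37 members tested (1.49-fold), against 0.01 over all 15068 genes tested. It was positive for 33 members and negative for Irf9, Cmpk2, Ifi27 and Ifi27l2b, while 50.7% of all genes had a positive value. Of the 37 members, 0 were called higher and 0 lower by edgeR's quasi-likelihood test at an adjusted p of 0.05, where 0.0531% of all genes were called higher and 0.00664% lower. At an unadjusted p below 0.05, 21 members (56.8%) were higher and 0 lower, against 9.32% and 7.09% of all genes. By DESeq2, 9 members (24.3%) rose, against 3.6% of all genes, and 0 fell, against 1.95%. The 9 were Stat2, Uba7, Usp18, Herc6, Oas1g, Oasl1, Bst2, Ifi44 and Xaf1. At an unadjusted p, 23 were higher by DESeq2 (10.4% of all genes) and 0 lower (7.15% of all genes). By limma-voom 0 rose (0.0265% of all genes) and 0 fell (0.00664% of all genes), with 20 higher and 1 lower at an unadjusted p (8.42% and 8.37% of all genes). In 11 members (29.7%) every knockout lay above every control, against 10% of all genes, and in 0 every knockout lay below, against 11.7%.

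The libraries held between 18972906 and 26687856 counts, and members took between 0.275% and 0.405% of them. Prkci stood between 44.0 and 46.9 CPM (counts divided by library size after trimmed-mean scaling) in the controls and between 14.6 and 21.5 CPM in the knockouts, without overlap. Its log2 fold change was −1.24 (SE 0.17, edgeR adjusted p = 0.0719). The transcripts Xist and Ddx3y marked 2 control libraries and 1 knockout library (replicate 1) as male, and they went against the sex in the series text for 3 of the 6. Libraries of 1 group come from separate mice, so spread between them holds both animal and technical variation.

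The transcription factors of the pathway did not move alike. Stat2, a subunit of the response-element complex (ENSMUSG00000040033.16, chromosome 10, 128270559 to 128292849), stood at 80.5, 51.6 and 69.4 CPM in control replicates 1 to 3 and at 96.7, 126 and 105 CPM in knockout replicates 1 to 3. The groups did not overlap, and the log2 fold change was 0.70 (SE 0.18), with adjusted p = 0.163 by edgeR and 0.0267 by DESeq2. Irf7, the factor that amplifies type I interferon production, stood at 79.0, 79.2 and 103 CPM and at 99.3, 157 and 116 CPM in the same order. Its groups overlapped through knockout replicate 1 (log2 fold change 0.51, SE 0.19, edgeR adjusted p = 0.263). Irf9, which carries the DNA-binding part of the complex, stood at 40.3, 32.2 and 39.0 CPM in the controls and at 42.6, 31.3 and 33.2 CPM in the knockouts. Knockout replicate 1 was the highest and replicate 2 the lowest of all 6 libraries, and the log2 fold change was −0.06 (SE 0.16, edgeR adjusted p = 0.877). Its sign turned positive when any 1 of control replicate 1 or knockout replicates 2 and 3 was left out, to at most 0.042. The rows of Irf9 and Rnf31, and of Irf7 and Phrf1, overlap at their ends, and the strand setting of the counting is not given.

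All 4 genes of the ISG15 system were higher at an unadjusted p (9.32% of all genes by edgeR), and 3 of them rose by DESeq2 (3.6% of all genes). Uba7, the enzyme that activates ISG15 (ENSMUSG00000032596.14, chromosome 9, 107975505 to 107984060), stood at 77.7, 70.0 and 74.1 CPM in the controls and at 102, 122 and 110 CPM in the knockouts. Each knockout lay above each control, and Uba7 had the smallest unadjusted p of the members (0.000785). Its log2 fold change was 0.59 (SE 0.11), with adjusted p = 0.104 by edgeR and 0.000481 by DESeq2. Usp18, the protease that removes ISG15 and restrains the type I receptor, stood at 12.1, 10.8 and 20.9 CPM and at 22.1, 42.0 and 27.5 CPM. Here control replicate 3 came close to knockout replicate 1 without reaching it (log2 fold change 1.06, SE 0.33, edgeR adjusted p = 0.199).

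Herc6, the ligase that attaches ISG15 in mice, and Isg15 itself were high in only part of the knockouts. Herc6 stood at 16.0, 13.4 and 19.0 CPM in the controls and at 16.7, 49.2 and 41.6 CPM in the knockouts, so that knockout replicate 1 lay among the controls. Its log2 fold change was 1.15 (SE 0.38, edgeR adjusted p = 0.214), and 1.49 without knockout replicate 1 (SE 0.16, adjusted p = 0.00221). Over all alternatives the value ran from 0.73 to 1.49, and besides that set only DESeq2 called Herc6. Isg15 (chromosome 4, 156199424 to 156200818) stood at 11.3, 7.25 and 14.7 CPM and at 12.1, 38.3 and 22.8 CPM. It showed the same arrangement, with a log2 fold change of 1.14 (SE 0.43, edgeR adjusted p = 0.262) and of 1.46 without knockout replicate 1 (SE 0.31, adjusted p = 0.0213). Over all alternatives the value ran from 0.68 to 1.46, and no other setting called Isg15.

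The 6 genes of the OAS family were all on the higher side, with log2 fold changes from 0.41 for Oas1a to 1.10 for Oas2. Over the alternatives these values ran from 0.14 to 0.72 for Oas1a and from 0.71 to 1.69 for Oas2. OAS enzymes make the second messenger that switches on RNase L, whereas OASL1 lacks that activity. Oasl1 (ENSMUSG00000041827.15, chromosome 5, 114923240 to 114937915), known as a translational brake on Irf7, stood at 102, 75.6 and 115 CPM in the controls and at 158, 210 and 159 CPM in the knockouts. The groups were separate, with a log2 fold change of 0.85 (SE 0.19) and adjusted p = 0.124 by edgeR and 0.00449 by DESeq2. Oas1g stood at 12.0, 9.33 and 15.0 CPM and at 18.6, 27.7 and 18.8 CPM, also separate (log2 fold change 0.84, SE 0.23, edgeR adjusted p = 0.178). Oas3, the largest enzyme of the family, stood at 64.8, 52.6 and 71.9 CPM and at 80.1, 113 and 89.8 CPM, separate as well (log2 fold change 0.58, SE 0.17, edgeR adjusted p = 0.185). Oasl2, Oas2 and Oas1a overlapped between the genotypes, and control replicate 3 was the highest control for each of the 6. Oas1a and Oas1g are near copies in a cluster on chromosome 5 (120876142 to 120907521), so the split of reads between them is uncertain.

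Cytosolic sensors of viral RNA and the kinase PKR were the least different of the groups on the higher side, with a median log2 fold change of 0.23. Ifih1, which encodes the long double-stranded RNA sensor MDA5, stood at 144, 132 and 150 CPM in the controls and at 150, 231 and 190 CPM in the knockouts. Knockout replicate 1 exceeded the highest control by less than 1 CPM, and the log2 fold change was 0.42 (SE 0.16, edgeR adjusted p = 0.270). Ddx58, which encodes RIG-I, stood at 84.3, 73.5 and 91.3 CPM and at 84.7, 110 and 97.4 CPM (log2 fold change 0.23, SE 0.14). Dhx58, which encodes the regulator LGP2, stood at 8.98, 5.67 and 11.7 CPM and at 8.90, 16.2 and 12.7 CPM (log2 fold change 0.52, SE 0.31). For both, knockout replicate 1 lay among the controls and edgeR adjusted p was 0.430 and 0.437. Trim25, the ligase that activates RIG-I, and Eif2ak2, which encodes PKR, had log2 fold changes of 0.15 and 0.07, the latter turning negative under library totals and without knockout replicate 2.

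Among genes whose products act on the virus itself, 5 of 7 were higher at an unadjusted p (9.32% of all genes by edgeR) and 1, Bst2, rose by DESeq2 (3.6% of all genes). Bst2, the tetherin that holds budding virus at the cell surface (ENSMUSG00000046718.8, chromosome 8, 71534255 to 71537456), stood at 1.89, 1.17 and 3.22 CPM in the controls and at 2.93, 9.32 and 7.89 CPM in the knockouts. Knockout replicate 1 lay below control replicate 3, and the log2 fold change was 1.68 (SE 0.51), with adjusted p = 0.199 by edgeR and 0.0269 by DESeq2. Ifitm3, which blocks entry of enveloped virus, stood at 2.02, 5.92 and 3.93 CPM and at 3.69, 17.5 and 13.5 CPM. Its log2 fold change of 1.55 (SE 0.60, edgeR adjusted p = 0.265) became 1.96 without knockout replicate 1 (SE 0.37, adjusted p = 0.0141). Over all alternatives the value ran from 0.96 to 1.96, and no other setting called Ifitm3.

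Samd9l, a growth-restraining antiviral factor, was the 1 gene of this group whose genotypes were separate, at 159, 123 and 142 CPM and at 185, 173 and 186 CPM (log2 fold change 0.36, SE 0.12, edgeR adjusted p = 0.228). Mx2 stood at 2.42, 1.25 and 3.10 CPM and at 3.09, 5.93 and 5.89 CPM (log2 fold change 1.14, SE 0.40, edgeR adjusted p = 0.236). The files class Mx2 as a polymorphic pseudogene, and many laboratory strains carry defective Mx alleles. Mx1, the dynamin-like antiviral GTPase, ranged from 3.54 to 11.7 CPM in the controls and from 6.01 to 11.5 CPM in the knockouts, and its sign depended on the libraries kept. Rsad2, the radical-SAM enzyme viperin, and Cmpk2, a nucleotide kinase, lie side by side on chromosome 12 (26442746 to 26456452 and 26469204 to 26479837). Rsad2 had a log2 fold change of 1.06 (SE 0.42, edgeR adjusted p = 0.277), with 5.71 to 15.8 CPM in the controls and 15.6 to 33.1 CPM in the knockouts. Cmpk2 stood at 51.1, 49.6 and 54.6 CPM and at 46.3, 47.1 and 50.7 CPM (log2 fold change −0.11, SE 0.09, edgeR adjusted p = 0.584), so these neighbours had opposite signs, a difference that was not tested.

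The ADP-ribosyltransferase genes Parp9 and Parp14 and the ligase gene Dtx3l, whose product pairs with PARP9, had log2 fold changes from 0.30 to 0.58, and Parp9 and Parp14 were past an unadjusted p of 0.05. Parp14 stood at 402, 274 and 299 CPM in the controls and at 373, 607 and 478 CPM in the knockouts (log2 fold change 0.58, SE 0.22, edgeR adjusted p = 0.263). Knockout replicate 1 lay below control replicate 1. Parp9 stood at 127, 125 and 123 CPM and at 131, 173 and 157 CPM, which were separate (log2 fold change 0.30, SE 0.12, edgeR adjusted p = 0.287). Dtx3l stood at 213, 202 and 204 CPM and at 202, 334 and 269 CPM (log2 fold change 0.38, SE 0.18, edgeR adjusted p = 0.352). The rows of Parp9 and Dtx3l share 682 bases, and Parp9 also overlaps the antisense row Gm15564, so reads there could be shared.

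The members of the Ifi27 family, small hydrophobic mitochondrial and membrane proteins, were unlike one another. Ifi27 (ENSMUSG00000064215.13, chromosome 12, 103434211 to 103440239) stood at 30.3, 24.2 and 26.6 CPM in the controls and at 27.0, 11.7 and 14.1 CPM in the knockouts. Knockout replicates 2 and 3 lay below every control and replicate 1 among them. The log2 fold change was −0.62 (SE 0.30, edgeR adjusted p = 0.359), and −1.07 without knockout replicate 1 (SE 0.15, adjusted p = 0.00524). Over all alternatives the value ran from −1.07 to −0.39, and no other setting called Ifi27. Ifi27l2b stood at 513, 436 and 458 CPM and at 520, 344 and 474 CPM (log2 fold change −0.07, SE 0.18). Ifi27l2a had 7, 1 and 16 counts in the controls and 25, 9 and 8 in the knockouts, too few for the test, and its highest value was in knockout replicate 1.

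Among the other induced genes, Ifi44 had the highest fold change of the members. Ifi44, a cytoplasmic protein of uncertain biochemical role (ENSMUSG00000028037.13, chromosome 3, 151730922 to 151749960), stood at 2.20, 1.62 and 4.52 CPM in the controls and at 7.03, 21.6 and 12.7 CPM in the knockouts. The groups were separate, with a mean ratio of 4.95 and a log2 fold change of 2.31 (SE 0.51), and adjusted p was 0.124 by edgeR and 0.000301 by DESeq2. Xaf1, a pro-apoptotic partner of XIAP, stood at 10.1, 7.25 and 11.4 CPM and at 13.7, 20.0 and 15.1 CPM, also separate (log2 fold change 0.76, SE 0.22, edgeR adjusted p = 0.183). Trim30a, a tripartite-motif protein that restrains NF-kB signalling, stood at 9.11, 6.58 and 17.2 CPM and at 14.3, 30.8 and 20.5 CPM, with knockout replicate 1 below control replicate 3 (log2 fold change 1.00, SE 0.41, edgeR adjusted p = 0.286).

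Lgals3bp, a secreted galectin-3 ligand, was far from even within the knockouts, at 146 CPM in replicate 1 and 526 and 420 CPM in replicates 2 and 3. The controls lay between these, at 212, 182 and 217 CPM, and the log2 fold change was 0.84 (SE 0.41, edgeR adjusted p = 0.363). Rtp4, Sp100 and Ifi35 overlapped between the genotypes, with log2 fold changes of 0.52, 0.27 and 0.13.

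**Figure D1:**
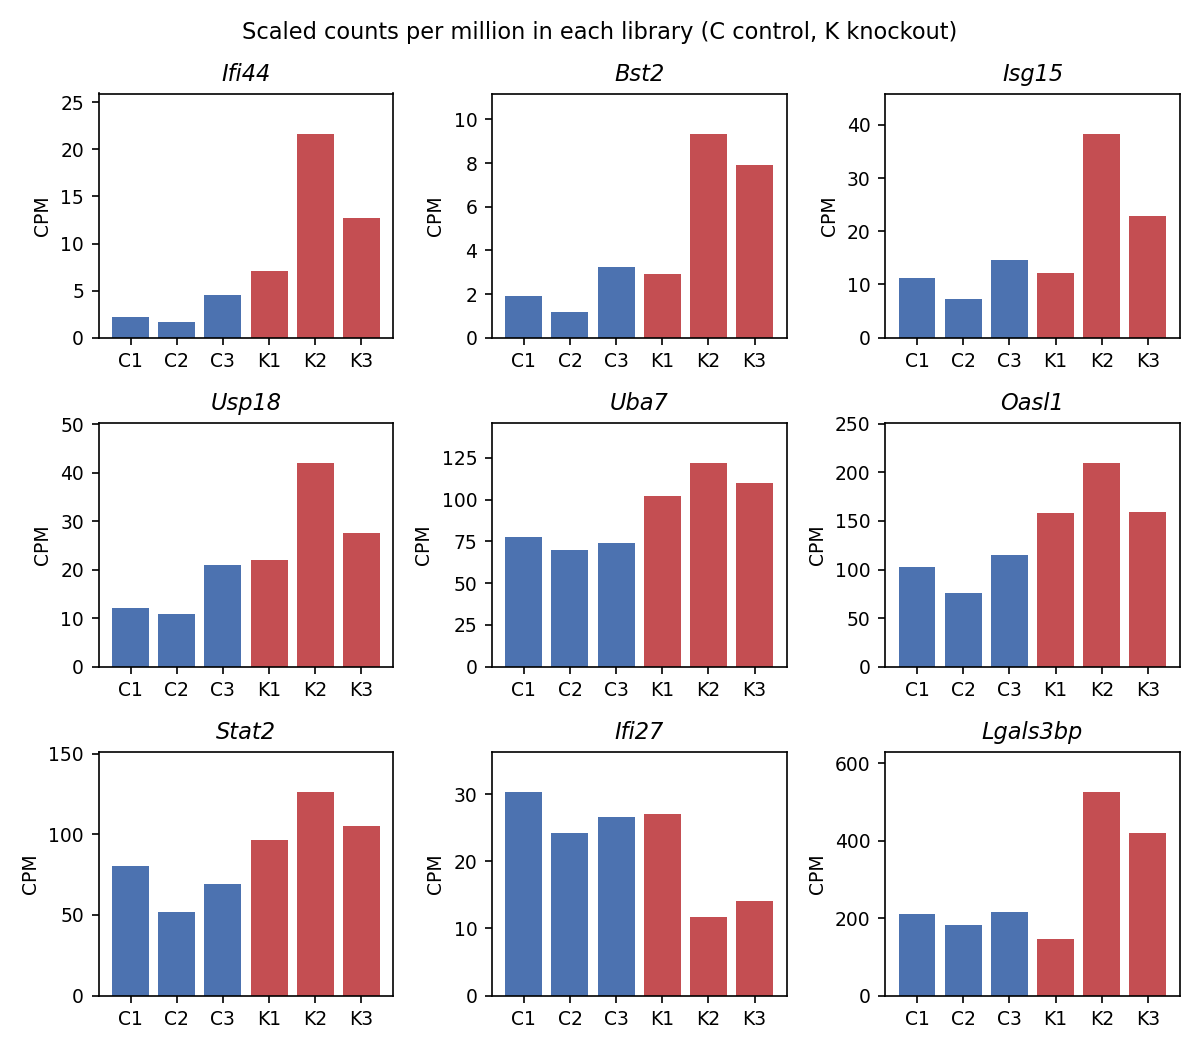
CPM after trimmed-mean scaling (y axes, from 0) of 9 members in each library (x axes, C1 to C3 control and K1 to K3 knockout replicates 1 to 3), 1 bar per library. Ifi44, Usp18, Uba7, Oasl1 and Stat2 are separate between the groups, while Bst2, Isg15, Ifi27 and Lgals3bp have K1 among or below the controls.

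**Figure D2:**
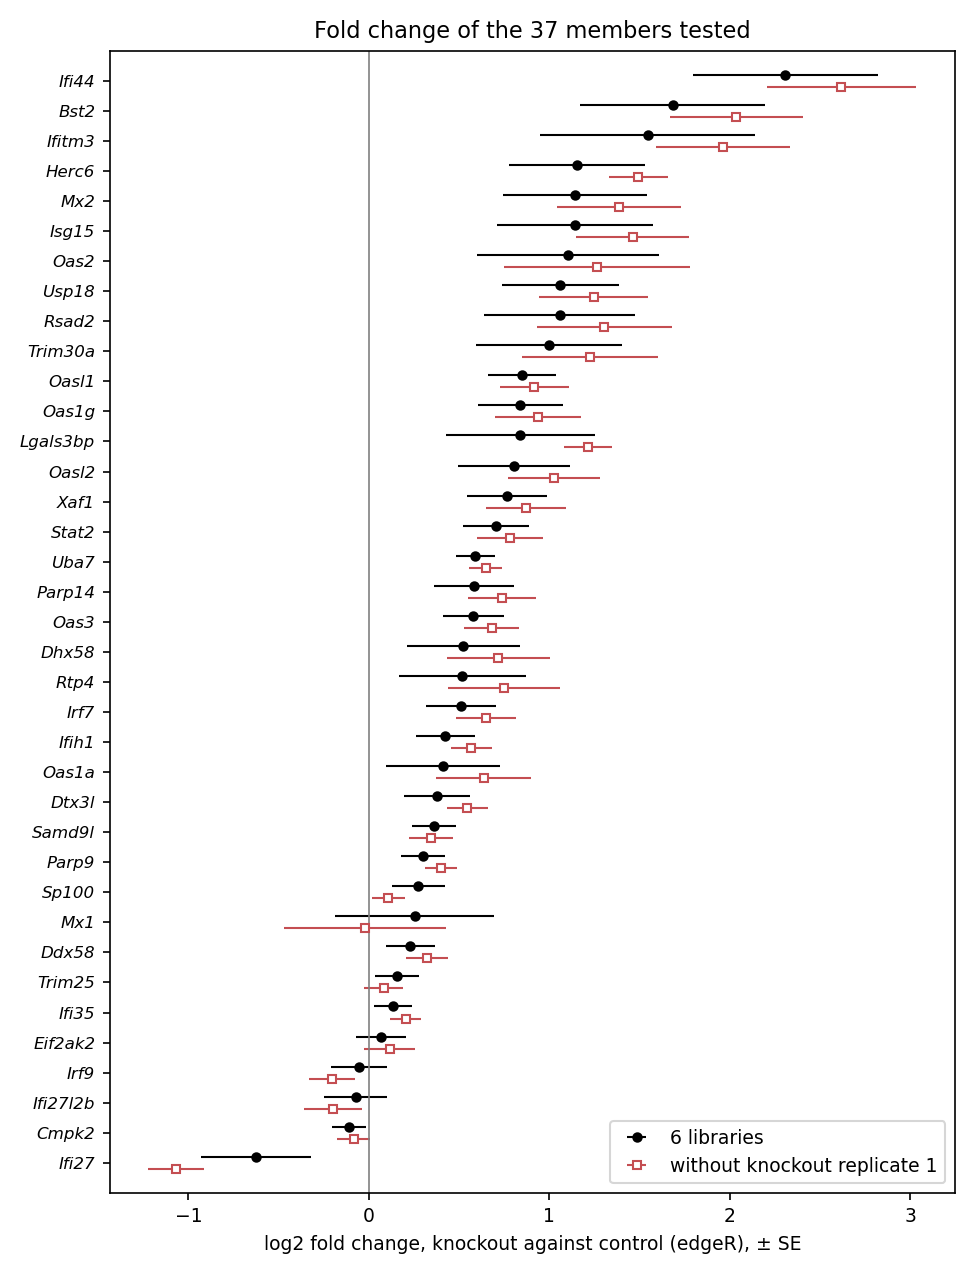
Log2 fold changes (x axis, knockout against control) with standard errors for the 37 members tested, from all 6 libraries (black) and without knockout replicate 1 (red). The black points run from −0.62 for Ifi27 to 2.31 for Ifi44, and 33 of the 37 lie above 0.

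The knockouts were not alike, and their order was much the same from member to member. Knockout replicate 2 held the highest value of the 6 libraries in 29 of 37 members (78.4%), against 23.5% of all genes, and the order replicate 2, replicate 3, replicate 1 was seen in 28 (75.7%, against 25.5% of all genes). The mean level of the members, in log2 CPM less the mean of the controls, was 0.30, 0.92 and 0.63 in knockout replicates 1 to 3. It was 0.05, −0.30 and 0.25 in control replicates 1 to 3, so knockout replicate 1 exceeded control replicate 3 by little. Knockout replicate 1 lay within the range of the controls in 20 members (54.1%, against 36.4% of all genes) and above it in 15 (40.5%, against 31% of all genes). It lay below that range in Cmpk2 and Lgals3bp (5.41%, against 32.6% of all genes). Knockout replicates 2 and 3 were both above every control in 27 members (73%, against 25.7% of all genes) and both below in Ifi27 alone (2.7%, against 26.6% of all genes). The like count was 11 for replicates 1 and 3 (13.5% of all genes) and 13 for replicates 1 and 2 (13.3% of all genes).

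Without knockout replicate 1, edgeR called 20 members higher (54.1%), against 10% of all genes, and Ifi27 lower, against 7.44% of all genes. At an unadjusted p, 29 members were higher there, against 17.9% of all genes. Rsad2, Trim30a and Samd9l were among the members not called there, with adjusted p = 0.0545, 0.0656 and 0.0976. That set leaves 2 knockouts, both female by transcripts, against 3 controls of which 1 is female, so sex and genotype are partly confounded in it. Leaving out any other library gave 0 calls among the members, with 9 to 17 higher at an unadjusted p.

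The controls were ordered too. Control replicate 2 was the lowest of the 3 in 33 of 37 members (89.2%, against 35% of all genes), and control replicate 3 the highest in 24 (64.9%, against 26.2% of all genes). Oas2 had the broadest control range in relative terms among the OAS genes, at 4.84, 1.96 and 8.54 CPM, against 8.35, 15.5 and 9.13 CPM in the knockouts. The spread within a genotype was therefore shared over members and entered the error of each gene.

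Within each sex by transcripts the members were also on the higher side. Among males, knockout replicate 1 exceeded the mean of control replicates 1 and 2 in 32 of 37 members (46.8% of all genes), with a median log2 ratio of 0.33. Among females, the mean of knockout replicates 2 and 3 exceeded control replicate 3 in 33 members (49.3% of all genes), with a median of 0.52. These sets hold 1 library on a side and were not tested. Ifitm3, Dtx3l and Lgals3bp had a ratio below 1 among males (log2 −0.10, −0.04 and −0.43) and above 1 among females (1.98, 0.56 and 1.12). Ifi44 was similar in both, at 1.88 and 1.92.

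**Figure D3:**
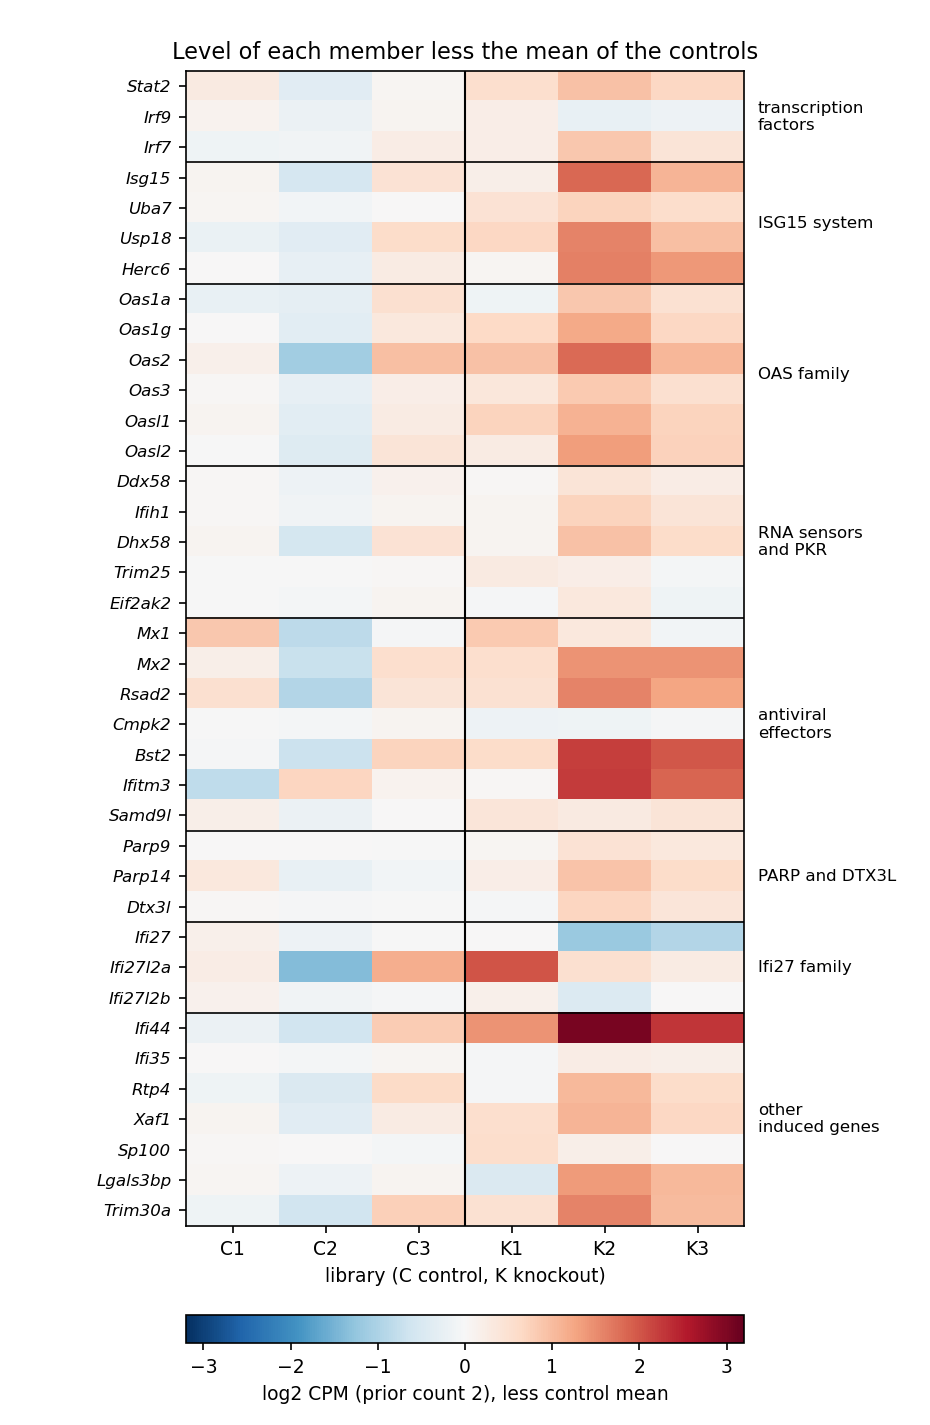
Level of each of the 38 members (rows, grouped by role) in each library (columns), as log2 CPM with a prior count of 2 less the mean of the controls (colour scale, red higher). Columns K2 and K3 are red for most rows, K1 is paler, C2 is blue in most rows, and Ifi27 runs opposite.

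By role, the mean level separated the genotypes in some groups and not in others. It was higher in every knockout than in every control for the transcription factors, the ISG15 system, the OAS family and the antiviral effectors. The genotypes overlapped through knockout replicate 1 for the RNA sensors, the PARP group, the Ifi27 family and the other induced genes. Some of this split was narrow. Control replicate 3 and knockout replicate 1 stood at 0.449 and 0.458 for the OAS family and at 0.325 and 0.342 for the ISG15 system. They stood at 0.366 and 0.358 for the other induced genes. For the ISG15 system it was 0.34, 1.44 and 1.00 in knockout replicates 1 to 3, and for the antiviral effectors 0.39, 1.14 and 0.98. For the Ifi27 family it was 0.08, −0.82 and −0.46. The mean over all genes tested stayed between −0.01 and 0.06 in the 6 libraries.

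Lists of cell type markers were measured beside these levels. The 10 epithelial markers summed to between 15001 and 15891 CPM in the controls. In knockout replicates 1 to 3 they summed to 15231, 21218 and 19791 CPM, so the defining markers of the labelled tissue were present. The 10 markers of T cells and intraepithelial lymphocytes summed to 187 to 318 CPM in the controls. In knockout replicates 1 to 3 they summed to 377, 912 and 472 CPM. This order of knockouts was also that of most members, of the epithelial sums and of 25.5% of all genes. Gzma held the largest part of the T cell sum, at 141, 484 and 226 CPM in knockout replicates 1 to 3. Gzmb, Cd3e, Cd3g, Cd8a, Cd8b1 and Itgae had the same order as Gzma. Ptprc and Cd2 were instead highest in knockout replicate 1, and Cd3d was nearly equal in replicates 1 and 3. Of the 10 T cell markers, 8 were higher in every knockout than in every control, as were 10% of all genes. The 10 macrophage and dendritic cell markers summed to 9.81 to 14.9 CPM and to 44.1, 21.8 and 26.6 CPM. Their highest value was in knockout replicate 1. Of these 10 markers, 4 were higher in every knockout than in every control, and the others, such as Cd68 and C1qc, overlapped. Fcgr1, among the 4, had 0 counts in the controls and 5, 2 and 5 in the knockouts, too few for the test. Plasmacytoid dendritic cell markers, apart from Klk1, summed to 2.47 to 3.96 CPM in the controls and 3.08 to 6.67 CPM in the knockouts. Klk1 itself was lower in every knockout, at 39.6 to 49.3 CPM in the controls and 21.1 to 25.6 CPM in the knockouts. B and plasma cell markers summed to 30.1 to 130 CPM in the controls and 147 to 324 CPM in the knockouts. Endothelial markers summed to 3.42 to 5.52 CPM and to 9.65 to 15.3 CPM, so both sums were higher in every knockout. Stromal sums overlapped, at 6.73 to 20.5 CPM in the controls and 13.8 to 79.9 CPM in the knockouts. The part of these cells in the levels of the members was not tested. In bulk RNA a change in the number of cells of a type and a change in RNA per cell cannot be told apart. Loci that overlap ribosomal RNA repeats took 2.16% to 2.91% of counts in the controls. They took 4.89%, 5.91% and 5.43% in knockout replicates 1 to 3, again the order of most members, and their part was not tested either.

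**Figure D4:**
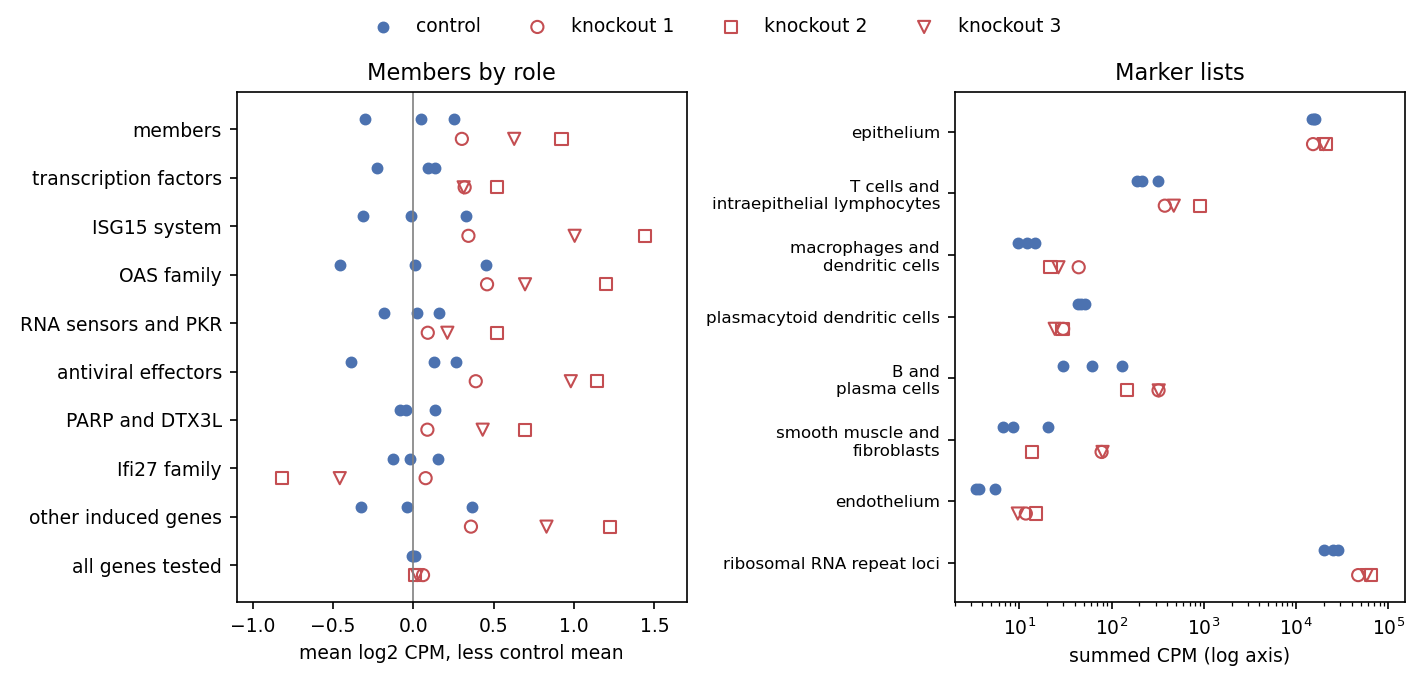
Left, mean log2 CPM of the members and of each role group, less the mean of the controls (x axis), and right, summed CPM of each marker list (x axis, log scale), with 1 point per library. Knockout 2 lies farthest right for the members and for T cell markers, and knockout 1 for macrophage markers.

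Genes that act before these in the pathway were read from a list of 50. Of 20 interferon genes, 17 had 0 counts in all 6 libraries, among them the 13 rows whose names begin with Ifna, Ifnb1, Ifnl2 and Ifnl3. A count of 0 does not show that the expected count was 0. An expected count of 3 in a library was taken as the upper limit, which is 0.120 to 0.152 CPM. Ifng had 1, 2 and 4 counts in the controls and 5, 9 and 8 in the knockouts, too few for the test, while Ifnk had 3 counts and Ifne 2 over all libraries. None of the 6 receptor chains and 3 kinases was past an unadjusted p of 0.05, with log2 fold changes from −0.35 for Ifngr2 to 0.25 for Ifnar2.

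Of the 29 listed genes that were tested, 0 were called by edgeR, and 8 were higher and 1 lower at an unadjusted p (9.32% and 7.09% of all genes). By DESeq2, 5 rose and 0 fell (3.6% and 1.95% of all genes), among them Irf1, Irf8, Tmem173 and Zbp1. Irf1, the factor induced by interferon-gamma, was separate between the genotypes, at 154 to 169 CPM and at 220, 314 and 294 CPM (log2 fold change 0.77, SE 0.15, edgeR adjusted p = 0.115). Irf8, a partner of IRF1, stood at 77.5 to 83.5 CPM and at 102, 177 and 154 CPM (log2 fold change 0.84, SE 0.20, edgeR adjusted p = 0.137). Zbp1, which detects left-handed double-stranded nucleic acid, and Tmem173, which encodes STING, had log2 fold changes of 1.93 (SE 0.37) and 1.90 (SE 0.34), Irf5 1.06, Socs3 0.72 and Adar 0.39. Ptpn2, a phosphatase that dampens JAK and STAT signalling, was lower in every knockout, at 26.2 to 28.8 CPM in the controls and 21.5 to 24.3 CPM in the knockouts (log2 fold change −0.29, SE 0.11, edgeR adjusted p = 0.270).

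Levels per exon length placed the members in the controls over a wide range. In CPM per kilobase, Ifi27l2b stood highest at 429 ± 36.4 (SD, n = 3), followed by Lgals3bp at 71.5 ± 6.62 and Trim25 at 42.8 ± 0.741. At the other end stood Mx2 at 0.624 ± 0.259 and Ifi44 at 0.454 ± 0.250. Of the 37 neighbouring pairs in this order, 31 had overlapping control values, so most ranks are not resolved. These pairs include Trim25 with the gene ranked next, Oasl1, and Mx2 with Ifi44. Lengths were unions of exons in GENCODE release M21, and transcripts in use may be shorter.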

How the data were processed

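Poly-A RNA of 6 libraries was sequenced by the submitters, whose labels also name a kit that removes ribosomal RNA. The submitters' processing notes list STAR 2.5.0a, Trim Galore, FastQC, bcl2fastq 2.17 and build mm10. How reads were assigned to genes, by which tool, strand rule and annotation, is not stated there. The authors deposited unnormalized whole-number counts, 1 per gene and library. Of 54446 row identifiers, 97.8% matched GENCODE M21 with their version and coordinates.

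From the counts, edgeR 4.0.16 in R 4.3.3 (trimmed-mean scaling, expression filter with minimum count 10, two-sided quasi-likelihood F test, genotype as the sole term) tested 15068 genes, with Benjamini-Hochberg adjustment over all of them and a threshold of 0.05. The standard error is the log2 fold change over the square root of F. DESeq2 1.42.0 and limma 3.58.1 were alternatives, as were other scalings and filters, newer dispersion estimation, a replicate block, a sex covariate from Xist and Ddx3y, coding genes alone and leaving out each library. Removal of 2 ribosomal repeat loci was added after seeing the data. The tests were tested on simulated data.

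Deviations from group means correlated at 0.117, 0.119 and 0.149 for same-numbered libraries and at −0.143 to 0.00929 for others. Same-numbered libraries may thus be paired, though the labels do not say what a number marks. The main test did not use such a pairing, and the replicate block was run as an alternative. Every pair of libraries within a group differed by more than sampling noise (lowest chi-square per gene 23.8). Members and lists were chosen with earlier results of these data known. Library values are printed for up to 3 members of each role with the smallest unadjusted p, those with negative folds and those not tested. Values of Isg15, Ifitm3, Lgals3bp and Oas2 were added after they were seen. A gene of the pathway list is not reported here by name.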

Additional observations from a re-analysis of the deposited data

How the results depend on the processing

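No member passed an adjusted p of 0.05 in either direction under 14 of the 17 alternatives. The count of members called higher was 2 without a filter on low counts (Oasl1 and Ifi44), 9 with DESeq2 and 20 without knockout replicate 1, where 1 was called lower. Calls over all genes, in either direction, were also more in these settings. They were 284 of 28231, 836 of 15068 and 2700 of 15470 genes tested, against 9 in the main fit. Over the sets that leave out 1 library the count of members ran from 0 to 20 higher and from 0 to 1 lower. For the other pathway genes the count higher was 3 without a filter, 5 with DESeq2 and 8 without knockout replicate 1, and over the sets that leave out 1 library it ran from 0 to 8 higher and 0 to 4 lower. With the replicate block 0 members and 0 other pathway genes were called, and 14 members were higher at an unadjusted p, against 21 without it. Calls over all genes went from 9 to 0. The block was not run with DESeq2. With sex by transcripts as a covariate the median of the members was 0.39, with 16 higher at an unadjusted p. Library totals without scaling moved the median of all genes by −0.11 and that of the members by −0.12. Of the 37 members, 33 kept their sign under all alternatives. The other 4 changed sign. Irf9 was 0.023 without control replicate 1 and 0.042 and 0.0073 without knockout replicates 2 and 3, and ran from −0.20 to 0.042 over the sets that leave out 1 library. Eif2ak2 was −0.0499 with library totals and −0.072 without knockout replicate 2 (−0.072 to 0.17 over those sets). Mx1 was −0.076 without control replicate 2 and −0.022 without knockout replicate 1 (−0.076 to 0.83). Ifi27l2b was 0.014 without control replicate 1 and 0.096 without knockout replicate 2 (−0.20 to 0.096). The stricter motif was found in 6 promoters in place of 12. The cause of these changes was not tested. Ifi27l2a and the interferon genes had too few counts for the test, and low depth and absent expression cannot be told apart there.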
